A study of Mus musculus with 6 samples.

Results

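Genes that move, store or sense calcium were followed in sorted cone photoreceptors: the plasma membrane pumps Atp2b1 and Atp2b2, the endoplasmic reticulum (ER) pump Atp2a2, the entry channel Orai1 with its store sensor Stim1, the store release channels Ryr2 and Itpr1, the mitochondrial channel Mcu, and the sensor Calm2. The genes were looked up by symbol, and each symbol matched 1 row among the 46078 genes of the count table, so that all 9 members were found. RNA was sequenced from TN-XL-positive cones of rd1 TN-XL mouse retinal explants, 3 libraries after Trichostatin A (TSA) and 3 after its solvent DMSO. TSA is an inhibitor of class I and II histone deacetylases, and the comparison asks how blocking these enzymes alters transcript levels in cones of a retina whose rods have mostly died. The 3 TSA libraries came from explants kept with 10 nM TSA, and the 3 DMSO libraries from explants given the same amount of solvent. Explants of both groups carried the rd1 mutation of the rod gene Pde6b on a mixed C57BL/6J x C3H background, came from mice of either sex, kept their pigment epithelium, and were cultured from postnatal day (PN) 19 for 7 days. TN-XL, a fluorescent calcium biosensor, is driven by the human red opsin promoter HR2.1, so the sort selects cells in which this promoter is active, and each replicate pooled at least 2 explants from different animals. The sample names and source labels of both groups give harvest at PN26, whereas the time labels give PN29, PN30 and PN31 for TSA and PN26, PN27 and PN28 for DMSO, and if the time labels held, treatment and age could not be told apart.

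Calcium enters photoreceptors through cyclic nucleotide-gated channels of the outer segment and voltage-gated channels of the inner segment and synapse, and it is removed by sodium calcium exchangers and by ATP-driven pumps. SERCA pumps, of which Atp2a2 encodes the housekeeping form, load the ER store, ryanodine receptors and IP3 receptors release it, and STIM proteins sense an emptied store and open ORAI channels in the plasma membrane. Mitochondria take calcium up through the MCU pore, and calmodulin carries the signal to kinases, phosphatases, channels and the plasma membrane pumps.

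The libraries held 12088800 to 12734097 counts in TSA cones and 9135389 to 13650676 in DMSO cones. They differed in how many genes lay above 1 CPM (counts scaled to a library total of 1000000), with 6974 to 10795 in TSA cones and 6690 to 8837 in DMSO cones. The spread between replicates was large: the common dispersion of edgeR corresponded to a coefficient of variation of 147%, and 37.9% of the 9621 genes tested had 0 counts in at least 1 library. Cone markers made up 2.97 to 4.99% of all counts in TSA cones and 3.14 to 5.29% in DMSO cones, and of 11 such markers at least 10 had 10 or more counts in every library. Transcripts of other retinal cells were present too. Müller glia markers (10 genes) summed to 1.42% of counts in TSA replicate 1, against 0.0729 to 0.0787% in the other TSA libraries and 0.0922 to 0.126% in DMSO cones. In such bulk samples fewer cells of a type and less RNA per cell cannot be told apart. No gene reached an adjusted p of 0.05 in edgeR's quasi-likelihood test with Benjamini-Hochberg adjustment (0% of genes tested), while 993 had an unadjusted p of 0.05 or less, and DESeq2 called 856. At that unadjusted level 8.02% of all genes tested were higher in TSA cones and 2.3% were lower, and 6.39% had all 3 TSA libraries above all 3 DMSO libraries and 3.7% all below.

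Of the 9 members, 6 passed the filter on low counts (above 1 CPM in at least 2 libraries of a group), namely Atp2b1, Atp2a2, Orai1, Ryr2, Mcu and Calm2. None had an adjusted p under 0.05. Orai1 and Ryr2 had an unadjusted p of 0.05 or less, both on the higher side, where 8.02% of all genes stood, and no member on the lower side, where 2.3% stood. Orai1 and Ryr2 passed the filter through TSA libraries alone, as each DMSO library held under 1 CPM of them. Only the higher side was therefore open to them, and their direction is no evidence. Without the filter the edgeR p was 0.0305 for Orai1 and 0.0899 for Ryr2. Ryr2 was higher in all 3 TSA libraries than in any DMSO library and Atp2a2 lower, against 6.39% and 3.7% of all genes. Atp2b2, Stim1 and Itpr1 did not pass the filter and were described by their counts alone. The plot of CPM per library shows 2 kinds of member: Atp2b1, Atp2a2 and Calm2 had 10 or more counts in each of the 6 libraries, and the other 6 had fewer than 10 in at least 1 library.

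**Figure D1:**
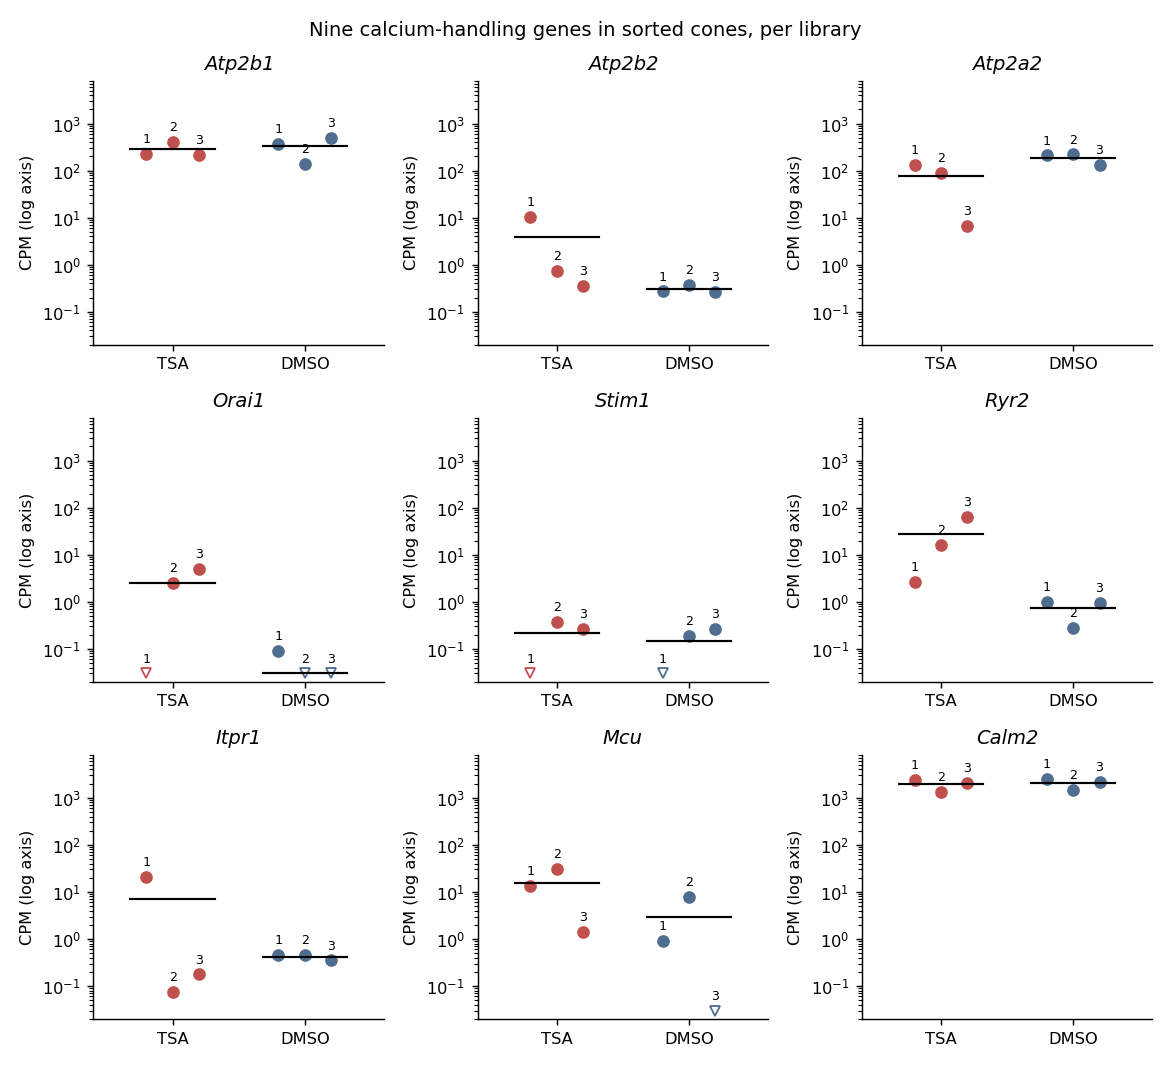
CPM of each member (log axis) in the 3 TSA and 3 DMSO libraries; points carry the replicate number, horizontal lines are group means, and open triangles at the foot of the axis are libraries with 0 counts. Atp2b1 and Calm2 overlap between the groups, Ryr2 lies above 2 CPM in every TSA library and below 1 CPM in every DMSO library, and Atp2b2 and Itpr1 are high in TSA replicate 1 alone.

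Levels of different genes were compared as CPM per kilobase of exon (CPM per kb). Calm2 stood highest, with 1324 CPM per kb in TSA cones and 1392 in DMSO cones. Atp2b1 (18.6 ± 7.31 in TSA cones and 21.7 ± 11.8 in DMSO cones) and Atp2a2 (12.4 ± 10.5 in TSA cones and 30.99 ± 7.73 in DMSO cones) came next (mean ± SD). The order of these means was not the same in the groups. Within each group the ranges of mean ± SD of Atp2b1 and Atp2a2 overlapped, and a change of order was not tested. Mcu followed with 2.20 CPM per kb in TSA cones and 0.423 in DMSO cones. Orai1 (1.10 in TSA cones and 0.0131 in DMSO cones), Ryr2 (0.950 and 0.0259, in the same order), Itpr1 (0.384 and 0.0231), Atp2b2 (0.306 and 0.0239) and Stim1 (0.0205 and 0.0144) lay lower. Below Mcu the TSA means of neighbouring genes were closer to each other than the spread between replicates, and the DMSO means of Orai1, Stim1, Itpr1, Atp2b2 and Ryr2 all rest on 25 counts or fewer in total.

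Atp2b1 encodes PMCA1, the plasma membrane pump found in most cells, and lies on chromosome 10 (GRCm38, chr10:98914406-99026143, plus strand). Its counts were 3286, 5495 and 2415 in TSA cones and 4022, 1462 and 5583 in DMSO cones, which is 284 ± 111 CPM in TSA cones and 330 ± 179 CPM in DMSO cones (SD, n = 3 each). The groups overlapped over nearly their whole range, with both the highest and the lowest library among the DMSO cones. The log2 fold change was -0.22 (SE 0.64, 95% interval -1.70 to 1.26), with an edgeR p of 0.743 and an adjusted p of 1, and its sign turned to 0.02 without TSA replicate 1 and to 0.04 without DMSO replicate 3. Atp2b1 carried 95.5 to 99.7% of the counts of the 4 plasma membrane pump genes in TSA cones and 89.8 to 99.8% in DMSO cones.

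Atp2b2 encodes PMCA2, a fast pump of neurons and hair cells (chr6:113743831-114042613, minus strand). It had 152, 10 and 4 counts in TSA cones and 3, 4 and 3 counts in DMSO cones. TSA replicate 1 held 10.5 CPM, whereas the other 5 libraries held 0.263 to 0.750 CPM, and TSA replicate 3 lay within the DMSO range. Summed over libraries the ratio of TSA to DMSO was 14.1 (95% interval 7.46 to 29.9), an interval that covers counting error only. Across replicates no difference was shown (exact permutation test of log2 CPM, two-sided p = 0.2, where the smallest p that 3 against 3 libraries allow is 0.1). Of the remaining pump genes, Atp2b4 had 1, 39 and 1 counts in TSA cones and 452, 2 and 8 in DMSO cones, so that its highest library was DMSO replicate 1, and Atp2b3 had at most 2 counts in any library. Basigin (Bsg), a membrane glycoprotein that partners these pumps, averaged 492 ± 308 CPM in TSA cones and 269 ± 87.1 CPM in DMSO cones (SD, n = 3 each; edgeR adjusted p = 0.946).

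Atp2a2 encodes SERCA2, which pumps calcium from the cytosol into the ER (chr5:122453513-122502225, minus strand). Counts were 1917, 1169 and 76 in TSA cones and 2329, 2370 and 1534 in DMSO cones. In CPM this was 132, 87.6 and 6.69 in TSA cones and 210, 220 and 134 in DMSO cones, so every TSA library lay below every DMSO library, but TSA replicate 1 only by a small margin, and TSA replicate 3 stood far below the rest. The log2 fold change was -1.32 (SE 1.07, 95% interval -3.81 to 1.17), with an edgeR p of 0.253 and an adjusted p of 1. The exact permutation test gave a two-sided p = 0.1, the smallest possible with 3 against 3 libraries. The log2 value was -0.86 without TSA replicate 3, -2.10 with limma-trend and -3.33 when each library's count of genes above 1 CPM entered the fit, and in none of these fits was the unadjusted p 0.05 or less. Atp2a2 supplied 96.2 to 99.9% of the SERCA counts in TSA cones and 99.4 to 100% in DMSO cones, since Atp2a1 had at most 1 count and Atp2a3 at most 8 in any library. An 83-base stretch of its exons is shared with Gm43361, a transcript annotated on the opposite strand with up to 426 counts in a library, and reads from that stretch cannot be told apart because the library kit does not mark strand. Tmco1, which lets calcium leak out of an overfilled ER, averaged 183 ± 112 CPM in TSA cones and 156 ± 101 CPM in DMSO cones (SD, n = 3 each; edgeR adjusted p = 1).

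Orai1 encodes the pore of the store-operated channel of the plasma membrane (chr5:123015074-123030456, plus strand). It had 0, 34 and 57 counts in TSA cones and 1, 0 and 0 counts in DMSO cones. The transcript was thus seen in TSA replicates 2 and 3, at 2.55 and 5.02 CPM, while TSA replicate 1 lay among the DMSO libraries with 0 counts, which at its depth allows up to 0.207 CPM. The log2 fold change was 5.97 (SE 2.23, 95% interval 0.78 to 11.15), with an edgeR p of 0.0222 and an adjusted p of 0.405. The summed counts gave a ratio of 77.1 with a counting interval of 13.5 to 3080, as the DMSO cones held 1 count in all. The exact permutation test gave a two-sided p = 0.4. The unadjusted p went to 0.0731 without DMSO replicate 2 and to 0.0658 without DMSO replicate 3, and without TSA replicate 2 or TSA replicate 3 the gene no longer passed the filter.

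The other ORAI genes were high in other libraries. Orai3, which can form mixed channels with Orai1, had 157, 0 and 1 counts in TSA cones and 0, 2 and 10 in DMSO cones. Orai2 had 0, 3 and 1 counts in TSA cones and 0, 1 and 23 in DMSO cones. The ORAI gene with the most counts was thus Orai3 in TSA replicate 1, Orai1 in TSA replicates 2 and 3, and Orai2 in DMSO replicate 3. Summed over the family, the level was 10.8, 2.77 and 5.19 CPM in TSA cones and 0.0903, 0.279 and 2.89 CPM in DMSO cones, and the groups overlapped between TSA replicate 2 and DMSO replicate 3.

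Stim1, the ER sensor that opens ORAI channels when the store empties (chr7:102267806-102437319, plus strand), was close to the detection limit. Its counts were 0, 5 and 3 in TSA cones and 0, 2 and 3 in DMSO cones, a ratio of 1.36 with a counting interval of 0.391 to 5.27, and a difference was not detectable at this depth. Its paralog Stim2, the sensor that responds to small losses of store calcium, had 1, 223 and 134 counts in TSA cones and 1, 1 and 0 in DMSO cones. Stim2 was thus high in the TSA libraries that held Orai1 and near 0 in TSA replicate 1 (log2 fold change 7.07, SE 2.41, edgeR p of 0.0177 and adjusted p of 0.405). These were the only 2 genes of the store-operated entry group, which had 8 genes, to pass the filter.

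Ryr2 encodes the ryanodine receptor best known from heart muscle and also widespread in brain (chr13:11553102-12106945, minus strand). Its counts were 38, 215 and 719 in TSA cones and 11, 3 and 11 in DMSO cones, or 2.62, 16.1 and 63.3 CPM in TSA cones and 0.994, 0.279 and 0.964 CPM in DMSO cones. The groups did not overlap, and the TSA libraries differed among themselves by 24.1-fold, with replicate 1 the lowest and replicate 3 the highest. The log2 fold change was 5.18 (SE 2.04, 95% interval 0.42 to 9.93), with an edgeR p of 0.0360 and an adjusted p of 0.428, and the summed counts gave a ratio of 33.0 (counting interval 22.2 to 51.2). The exact permutation test gave a two-sided p = 0.1, the smallest that 3 against 3 libraries allow. DESeq2 gave an adjusted p of 0.00504 where edgeR did not pass. The edgeR p stayed under 0.05 without any 1 of the TSA libraries (log2 3.55 without replicate 3). It was 0.0718, 0.0775 and 0.0751 without DMSO replicates 1, 2 and 3 in turn. These edgeR and DESeq2 fits all used the filter, which Ryr2 passed through TSA libraries alone, so its direction in them is no evidence. Without the filter the edgeR p was 0.0899.

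The other ryanodine receptors did not share the pattern of Ryr2 library by library. Ryr3 had 173, 318 and 2 counts in TSA cones and 2, 3 and 5 in DMSO cones (log2 fold change 5.27, SE 2.05, edgeR p of 0.0331 and adjusted p of 0.415), so it was high in TSA replicates 1 and 2 and at the DMSO level in replicate 3, where Ryr2 was highest. Ryr1, the skeletal muscle form, had at most 9 counts in any library. The 3 genes together reached 14.6, 40.2 and 63.98 CPM in TSA cones and 1.99, 1.21 and 1.67 CPM in DMSO cones, with no overlap. Ryr2 and Ryr3 made up nearly all of the TSA sums, and both passed the filter through TSA libraries alone. The lack of overlap of the sums is therefore no separate evidence. Fkbp1a, a small protein that binds ryanodine receptors and is also a general folding enzyme, averaged 369 ± 96.4 CPM in TSA cones and 261 ± 230 CPM in DMSO cones (SD, n = 3 each; edgeR adjusted p = 1).

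**Figure D2:**
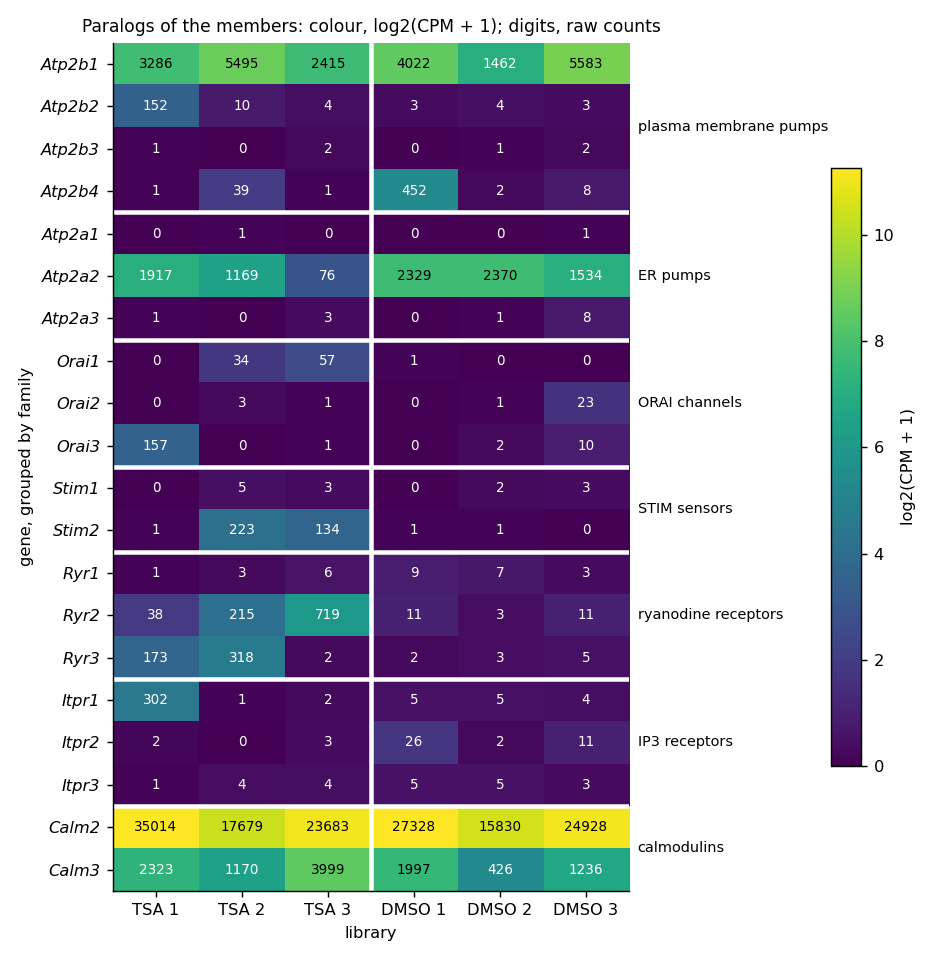
Members and their paralogs, grouped by family (rows), in the 6 libraries (columns, TSA at the left); colour is log2(CPM + 1) and the digits are raw counts. Atp2b1 and Atp2a2 carry nearly all counts of their families in every library except for 452 counts of Atp2b4 in DMSO replicate 1, whereas Orai1, Orai3, Stim2, Ryr3 and Itpr1 reach 57 counts or more in some libraries and are near 0 in others, and Stim1, Ryr1 and Itpr3 stay under 10 counts in all 6.

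Sequence upstream of the transcription start is shown for Orai1 and Ryr2, the members with an unadjusted p of 0.05 or less, because both were near 0 in DMSO cones and their start regions differ in base composition. The 250 bases before each RefSeq start (build GRCm38.p6) are given in the direction of transcription, with GC boxes (GGGCGG or its reverse complement CCGCCC) in capitals. The Orai1 stretch is chr5:123014824-123015073 on the plus strand and the Ryr2 stretch is chr13:12106946-12107195 on the minus strand.
Orai1: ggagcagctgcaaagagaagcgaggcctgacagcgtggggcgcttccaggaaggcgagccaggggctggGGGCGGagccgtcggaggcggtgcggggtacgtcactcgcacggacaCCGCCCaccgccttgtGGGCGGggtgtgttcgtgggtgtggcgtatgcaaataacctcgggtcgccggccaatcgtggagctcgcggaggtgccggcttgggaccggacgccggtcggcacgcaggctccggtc
Ryr2: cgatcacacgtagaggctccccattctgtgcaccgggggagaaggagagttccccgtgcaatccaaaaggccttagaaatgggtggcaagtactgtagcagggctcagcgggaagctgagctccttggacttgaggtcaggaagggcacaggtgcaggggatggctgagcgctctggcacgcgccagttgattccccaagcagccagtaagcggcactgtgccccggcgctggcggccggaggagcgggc
Orai1 has 3 GC boxes, 30 CpG dinucleotides and a G+C content of 70.8% in this stretch. Ryr2 has 0 GC boxes, 14 CpG dinucleotides and a G+C content of 63.2%. Among 32851 such windows of mouse genes, 32.7% held at least 1 GC box, and the median window had 6 CpG dinucleotides and a G+C content of 52.4%. Neither stretch held a TATA box (TATAAA or its reverse complement), which 12.4% of windows did. These are descriptions of the letters and say nothing of which factors bind there.

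Itpr1 encodes the IP3 receptor that predominates in neurons such as Purkinje cells (chr6:108213096-108551109, plus strand). It had 302, 1 and 2 counts in TSA cones and 5, 5 and 4 counts in DMSO cones. TSA replicate 1, at 20.8 CPM, stood alone, and the other TSA libraries, at 0.0750 and 0.176 CPM, lay below all DMSO libraries, at 0.351 to 0.465 CPM. The summed ratio of 18.5 (counting interval 10.8 to 34.2) thus rests on 1 library, and the exact permutation test gave a two-sided p = 1. Itpr2 had 2, 0 and 3 counts in TSA cones and 26, 2 and 11 in DMSO cones, and Itpr3 had at most 5 counts in any library.

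TSA replicate 1, the library with the highest Atp2b2, Itpr1 and Orai3, was also the one with the highest summed markers of several other cell types. Müller glia markers, 9 of 10 with 10 or more counts there, were at 1.42% of counts. The other TSA libraries had 0.0787 and 0.0729% of counts in these markers (6 and 7 of 10 markers), and the DMSO libraries 0.122, 0.0922 and 0.126% (7, 7 and 3 of 10 markers). Bipolar cell markers reached 0.397% of counts in TSA replicate 1 with 10 of 10 markers at 10 or more counts, against 0.134 and 0.129% in the other TSA libraries and 0.0893 to 0.2001% in DMSO cones. Microglia markers reached 0.165% with 10 of 10 markers, against 0.0116 and 0.00718% in the other TSA libraries and 0.0110 to 0.0549% in DMSO cones. Amacrine markers summed to 0.0211% with 6 of 9 markers, against 0.00108 and 0.000141% in the other TSA libraries and 0.00186 to 0.00905% in DMSO cones; Slc6a9 and Tfap2a were at 0 in that TSA library. The part of these cells in the Atp2b2, Itpr1 and Orai3 counts was not tested. For Orai1 and Ryr2 the same library was the lowest of the TSA cones.

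**Figure D3:**
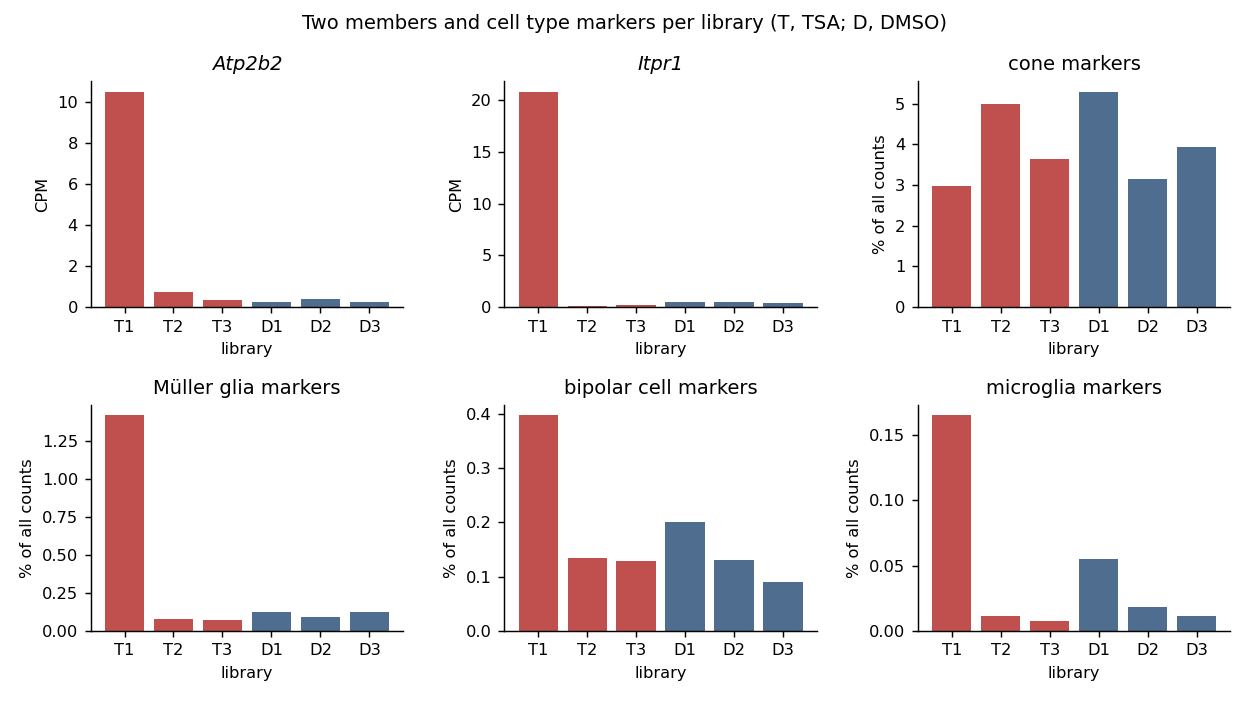
Atp2b2 and Itpr1 in CPM, and the summed counts of cone, Müller glia, bipolar cell and microglia marker lists as a percent of all counts, in each library (T1 to T3, TSA; D1 to D3, DMSO; bars start at 0). Atp2b2 at 10.5 CPM, Itpr1 at 20.8 CPM and Müller glia markers at 1.42% all have their highest bar in TSA replicate 1, while cone markers in that library, at 2.97%, are the lowest of the 6.

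Mcu encodes the pore of the mitochondrial calcium uniporter (chr10:59446984-59616692, minus strand). It had 192, 416 and 16 counts in TSA cones and 10, 85 and 0 counts in DMSO cones, or 13.2, 31.2 and 1.41 CPM in TSA cones and 0.903, 7.91 and 0 CPM in DMSO cones. TSA replicates 1 and 2 lay above every DMSO library, but TSA replicate 3 lay between DMSO replicates 1 and 2. The log2 fold change was 2.38 (SE 2.26, 95% interval -2.90 to 7.65), with an edgeR p of 0.325 and an adjusted p of 1. The log2 value was 1.36 without TSA replicate 2 and 5.02 without DMSO replicate 2.

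Other parts of the uniporter had their own patterns. Mcub, a pore subunit that dampens uptake, had 123 counts in TSA replicate 1 and 0 in the other 5 libraries. Smdt1, which encodes the small subunit EMRE, had 8577, 5975 and 18510 counts in TSA cones and 14677, 3790 and 12378 in DMSO cones, with overlapping groups (log2 fold change -0.05, SE 0.67, edgeR adjusted p = 1). Of the 11 genes of mitochondrial uptake, 10 were tested and none had an unadjusted p of 0.05 or less.

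Calm2 encodes calmodulin, the main calcium sensor of the cytosol (chr17:87433412-87446935, minus strand). Its counts were 35014, 17679 and 23683 in TSA cones and 27328, 15830 and 24928 in DMSO cones, which is 1942 ± 559 CPM in TSA cones and 2042 ± 513 CPM in DMSO cones (SD, n = 3 each). The groups overlapped, and the coefficient of variation between replicates was 28.8% in TSA cones, the lowest of the members, and 25.1% in DMSO cones. The log2 fold change was -0.07 (SE 0.36, 95% interval -0.91 to 0.76), with an edgeR p of 0.845 and an adjusted p of 1, and its sign turned with the scaling, to 0.08 with library totals and 0.04 with upper-quartile factors. Calm3, which encodes the same protein, had 2323, 1170 and 3999 counts in TSA cones and 1997, 426 and 1236 in DMSO cones (log2 fold change 0.87, edgeR adjusted p = 1). Reads from coding stretches shared by calmodulin genes may be split between them or lost, so these levels are uncertain.

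The members were set among 121 calcium-handling genes that the table held, of which 72 were tested. None had an adjusted p under 0.05, and 9 had an unadjusted p of 0.05 or less on the higher side, which is 12.5% of those tested against 8.02% of all genes, and 0 on the lower side, against 2.3% of all genes. All 9 passed the filter through TSA libraries alone, with under 1 CPM in each DMSO library, so only the higher side was open to them. The shares and the median given here describe the list and do not test it. Without Orai1 and Ryr2 and the other members, 7 of 66 tested genes were on the higher side. The median log2 fold change of the list was 0.26, against 0.03 over all genes tested. Of the list genes 43 lay above 0 and 29 below, which is 59.7% above 0, against 50.9% of all genes tested. The 9 genes to which only the higher side was open are among the 43. Of the 72, Ryr2 alone had all TSA libraries above all DMSO libraries (1.39%, against 6.39% of all genes tested) and Atp2a2 alone had them all below (1.39%, against 3.7%). With 1 library left out, the higher side held 4 of 60, 3 of 58 and 6 of 66 tested list genes without TSA replicates 1, 2 and 3. Over all genes it held 312 of 7989, 405 of 8271 and 676 of 8959 in these fits. Without DMSO replicates 1, 2 and 3 it held 3 of 72, 3 of 70 and 5 of 70 list genes. All genes then gave 593 of 9174, 750 of 8954 and 503 of 9187. The lower side held 1 list gene without TSA replicate 1 (273 of 7989 over all genes), 1 without DMSO replicate 2 (108 of 8954) and 0 otherwise.

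**Figure D4:**
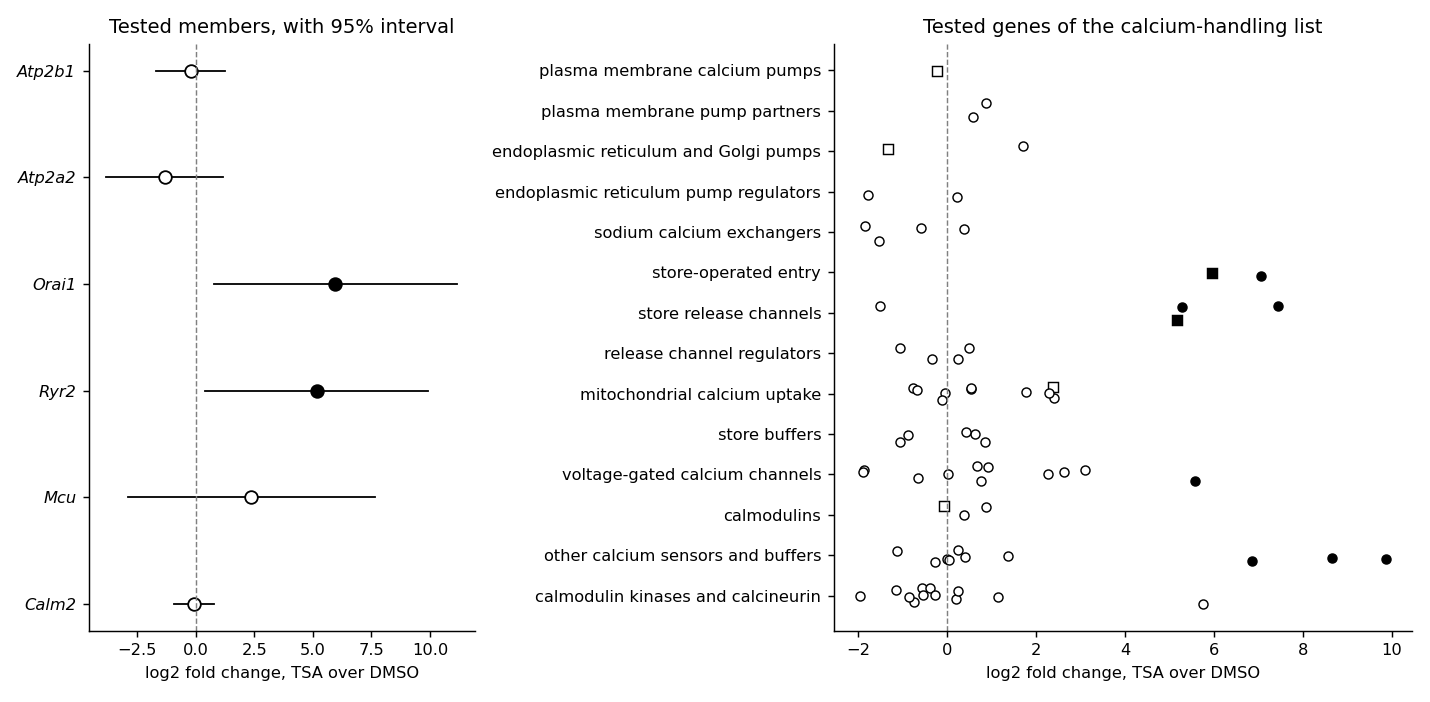
Log2 fold change of TSA over DMSO for the 6 tested members with 95% intervals (left), and for the 72 tested genes of the calcium-handling list by role (right); squares are members, filled symbols have an unadjusted edgeR p of 0.05 or less, and no gene passed after adjustment. The filled symbols, 9 in all, lie to the right of 0 among store-operated entry, store release channels, voltage-gated channels and other calcium sensors.

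The genes with an unadjusted p of 0.05 or less were, besides Orai1, Stim2, Ryr2 and Ryr3, the lysosomal release channel Mcoln1, the voltage-gated channel subunit Cacnb1, and the calcium-binding proteins Calb1 (calbindin), Ncald and Vsnl1. All but Ryr2 had at most 10 counts summed over the 3 DMSO libraries, and each of these 8 had 5 counts or fewer in 1 TSA library. Mcoln1 had 0, 495 and 543 counts in TSA cones and 1, 3 and 1 in DMSO cones. Cacnb1 had 129, 130 and 2 counts in TSA cones and 1, 3 and 0 in DMSO cones. Calb1, in the retina best known from horizontal and amacrine cells, had 1213, 501 and 1 counts in TSA cones and 1 count in every DMSO library. It was thus high in TSA replicates 1 and 2, and TSA replicate 3 was at the DMSO level. Ncald had 1016, 5 and 83 counts in TSA cones and 2, 5 and 0 in DMSO cones, with TSA replicate 2 inside the DMSO range. Vsnl1 had 84, 309 and 0 counts in TSA cones and 0 in all DMSO libraries, so TSA replicate 3 was at the DMSO level. Its summed counts were at least 111-fold higher in TSA cones against a floor of 3 counts over the DMSO group. That bound covers counting error only. The edgeR adjusted p-values of these genes were 0.405 to 0.440.

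Other abundant genes of the list were not called either. Guca1a, which encodes the guanylate cyclase activator of photoreceptors, averaged 7102 ± 4247 CPM in TSA cones and 7040 ± 2568 CPM in DMSO cones (SD, n = 3 each; edgeR adjusted p = 1). Slc24a2, the cone sodium, calcium and potassium exchanger, had 167, 1528 and 0 counts in TSA cones and 31, 995 and 1076 in DMSO cones, with TSA replicate 3 at 0 and DMSO replicate 1 low. Cacna2d4, a subunit of the photoreceptor calcium channel, averaged 103 ± 43.9 CPM in TSA cones and 54.0 ± 78.8 CPM in DMSO cones (SD, n = 3 each; edgeR adjusted p = 1). Sdf4, a calcium-binding protein of the Golgi lumen, had 1653, 1247 and 4906 counts in TSA cones and 349, 195 and 4848 in DMSO cones, with DMSO replicate 3 inside the TSA range. Camk2d, a calmodulin-dependent kinase, had 4544, 5210 and 934 counts in TSA cones and 114, 8339 and 2657 in DMSO cones. Both Sdf4 and Camk2d had an edgeR adjusted p of 1.

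For each tested member the 2 genes with the most similar pattern were listed by Pearson's r of log2 CPM over the 6 libraries, among 6948 genes with a mean of at least 10 CPM, as a description without a test. Ryr2 was most like Mettl8 (r = 0.971), with 306, 643 and 1129 counts in TSA cones and 184, 47 and 102 in DMSO cones, and Ercc8 (r = 0.963). Orai1 was most like the zinc finger gene Zfp493 (r = 0.997), with 1, 251 and 625 counts in TSA cones and 1, 0 and 0 in DMSO cones, and the antisense transcript Mtag2 (r = 0.997). Both had at most 1 count in TSA replicate 1, where Orai1 was at 0. Atp2a2 was most like Maneal (r = 0.994) and Desi2 (r = 0.993), the second with 498, 370 and 0 counts in TSA cones and 664, 1171 and 519 in DMSO cones, again lowest in TSA replicate 3. Mcu was most like G6pc3 (r = 0.985) and Ipo4 (r = 0.977), Atp2b1 most like Tmem134 (r = 0.965) and 1810022K09Rik (r = 0.963), and Calm2 most like Elp5 (r = 0.985) and Dapl1 (r = 0.976). With 6 libraries many genes reach such values: between 23 (Calm2) and 206 (Atp2a2) genes had an r above 0.9 with a member.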

How the data were processed

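Cones were sorted from 6 samples (3 TSA, 3 DMSO) and their RNA was amplified as full-length cDNA before sequencing. The deposited table holds raw counts per gene, made by the authors with STAR 2.5.4a on GRCm38 and Subread 1.6.0, with edgeR 3.22.3 named in the submitters' processing notes. Read handling at shared or overlapping genes is not given in the sources used here. PCR copies were not collapsed by molecular identifiers, so intervals on counts cover counting error only.

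From these counts, genes above 1 CPM in at least 2 libraries of a group were kept (9621 of 46078), scaled by TMM and tested with edgeR 4.0.16 (quasi-likelihood, group as the only term, Benjamini-Hochberg over all genes tested) in R 4.3.3. Rows with an identifier and no symbol (402) were kept. SE is the coefficient divided by the square root of F. Single genes were also tested by an exact permutation of log2 CPM (prior count 2). DESeq2 1.42.0, limma 3.58.1, other scalings and filters, a replicate block, a covariate and leaving out each library were alternatives. The fit was run on simulated counts with 200 changed genes, and its pass condition was set at a dispersion far below the 2.16 of these data. That check does not show how many real changes the test would find here. Depth was 9135389 to 13650676 counts, where 3 counts equal 0.207 to 0.279 CPM.

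Exon lengths came from GENCODE M21, which matched 45143 IDs, and upstream sequences from RefSeq, which matched 6 of 9 members. The members, the gene lists and the naming rule were chosen with earlier results of these data known: all members, their paralogs, list genes with an unadjusted p of 0.05 or less, the most abundant genes of each role, and the 2 most similar genes. Some genes that this rule names are not reported here. Markers of horizontal, ganglion, vessel, pigment epithelium and red blood cells summed to at most 0.0339% of counts in any library, and rod markers to 1.16 to 1.74% in TSA cones and 1.69 to 2.38% in DMSO cones.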

Additional observations from a re-analysis of the deposited data

How the results depend on the processing

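Under the alternatives 124 values kept their direction and side of the adjusted threshold or, for counts of genes, stayed close to the value above. For the exact permutation test direction alone was compared. Of the other values, 30 counts of genes moved, 8 log2 values reversed sign and 1 log2 value newly passed the adjusted threshold. Genes with an adjusted p under 0.05 numbered 0 with edgeR under each scaling, the filterByExpr filter, the replicate block, the covariate and each left-out library, and 0 with limma-trend, but 856 with DESeq2, 37 with limma-voom and 11 without a filter. The unadjusted threshold of 0.05 was met by 993 genes, and by 611 with limma-trend, 2780 without a filter and 328 with filterByExpr. It was met by 543 with the number of genes above 1 CPM as covariate, and by 585 to 864 when 1 library was left out. The share of them on the higher side was 77.7%, but 53.3% without TSA replicate 1, 61.9% without a filter and 66.5% with the covariate. Members at that level (2) numbered 0 with limma-voom, 1 each with limma-trend, without a filter and with filterByExpr, and 0 to 2 with 1 library left out. List genes in either direction (9) numbered 5 with limma-voom, 1 with limma-trend, 1 with filterByExpr, 4 with the covariate and 3 to 6 with 1 library left out. Same-numbered TSA and DMSO libraries did not visibly deviate together (r = -0.01, 0.06 and 0.04), and differently numbered ones had r from -0.09 to 0.05. With 3 libraries in a group and this spread, such values cannot decide whether the numbers pair samples. A replicate block gave 621 genes, 0 members and 2 list genes, and a log2 value of -2.01 for Atp2a2. The log2 value of Atp2b1 turned to 0.22 with the covariate and ranged from -0.62 to 0.044 with 1 library left out. That of Calm2 turned to 0.079 with library totals, 0.044 with upper-quartile factors and 0.0023 with the covariate, and ranged from -0.30 to 0.20. Library totals and upper-quartile factors moved the median of all genes from 0.03 to 0.14 and 0.13. Ryr2 passed only with DESeq2 (adjusted p = 0.00504, log2 5.15), where Orai1 had 0.125. The causes were not tested. Counts under 10 limit Atp2b2, Stim1 and Itpr1.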
